A study of Mus musculus with 6 samples.

Results

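The genes described here are 4 members of the Zic family (Zic1, Zic2, Zic4 and Zic5) and 5 further genes mutated in holoprosencephaly, the failure of the embryonic forebrain to divide into left and right sides: Tgif1, Gas1, Cdon, Disp1 and Stil. They were chosen by symbol from the 24062 genes of the deposited tables, and all 9 were found and passed the filter on low counts. Zic4 passed that filter through the wild-type libraries, since outside them only heterozygous replicate 2 held more than 1 read (15). The libraries were stranded and poly(A)-selected, from RNA of C57BL/6 mouse heads taken at embryonic day 8.5, when the anterior neural plate is being divided into brain regions. The mutant heads were homozygous for tm1a of Prdm15 (Prdm15 tm1a-/-), the heterozygous heads carried 1 copy (Prdm15 tm1a+/-) and the wild-type heads none (Prdm15 tm1a+/+), with 2 libraries per genotype. tm1a is a knockout-first insertion allele, present from the germ line and so in every cell. Prdm15 encodes a zinc finger protein of the PRDM family.

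Zic proteins are zinc finger transcription factors of the dorsal neural tube, the neural plate border and parts of the mesoderm, and loss of ZIC2 causes holoprosencephaly in humans. Most of the other genes act on signals that shape the ventral forebrain. Disp1 releases lipid-modified Sonic hedgehog from the cells that make it. Cdon and Gas1 are co-receptors that help a receiving cell bind it, and Tgif1 is a homeodomain corepressor that restrains TGF-beta and Nodal transcription. Stil is needed for centriole duplication, and so for the cilia on which Hedgehog signals are read.

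The mutant libraries held 39068327 and 29412227 reads in genes, against 31236970 and 29570459 for heterozygous and 40439234 and 34656271 for wild-type heads. The count files attached to mutant replicate 1 and wild-type replicate 2 bear each other's titles. Each count file had its zeros at the same genes as the RPKM column of the title in its name (0 genes differing), and for 100% of the genes compared its ratio to that column lay within 0.1% of a constant, so the files were assigned by title. That match shows that file titles and table columns go together, not which genotype an embryo had, and each mutant against wild type value rests on it. With the files as attached, 0 of 15187 genes passed edgeR's test in any comparison, and 318, 48 and 422 genes had an unadjusted p under 0.05 in mutant against wild type, heterozygous against wild type and mutant against heterozygous; no other tool was run on that assignment. Prdm15 itself was at 4.16 and 5.04 RPKM in mutant, 4.47 and 5.01 in heterozygous and 5.56 and 5.14 in wild-type libraries. Its log2 fold change in mutant against wild type was -0.21 (SE 0.12, adjusted p = 0.221), so counts over the whole gene did not check the genotype labels. Xist, transcribed in female cells, had 47887 and 32299 reads in mutant, 11 and 8 reads in heterozygous and 11 and 46203 reads in wild-type libraries, so that genotype and sex are partly confounded. The titles of the 3 libraries high in Xist also begin with the same digits, unlike those of the other 3. What these digits mark is not given in the labels, and the term for Xist cannot be told apart from them. Markers of yolk sac visceral endoderm, a tissue outside the embryo, summed to 5066 and 4269 CPM (counts scaled to library size) in mutant, 2711 and 1960 in heterozygous and 8.63 and 16.1 in wild-type libraries. Heart genes summed to 1861 and 1085 CPM in mutant, 1690 and 2699 in heterozygous and 227 and 102 in wild-type libraries. Of the 14 yolk sac markers, 2 (Apoa4 and Spp2) were at 0 in wild-type replicate 1 and 1 (Spp2) in replicate 2. The part of this tissue, and of sex, in the results below was not tested beyond the alternatives named. In whole heads, fewer cells of a type and less RNA per cell cannot be told apart.

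Zic1 and Zic4 lie together on chromosome 9 and were the most variable of the 9 genes. In GENCODE M21 on GRCm38, Zic1 spans 91358058 to 91365810 on the minus strand and Zic4 spans 91362413 to 91389348 on the plus strand, an overlap of 3398 bases. The RefSeq starts used for the promoter windows lie 3204 bases apart and point away from each other. As the strand setting of the counter is not given in the sources used here, reads in the overlap cannot be given to 1 gene with certainty. Zic2 (chromosome 14, 122475435 to 122479852, plus strand) and Zic5 (122456795 to 122465677, minus strand) form a like divergent pair, with 9757 bases between them and no overlap. The promoter windows of 300 bases around the start are shown for Zic1 and Zic4, which were low together, and for Zic5, which was not, from RefSeq on GRCm38.p6, with CpG dinucleotides in capitals. Zic2 is not shown.
Zic1 promoter, chr9:91365719-91366018, minus strand: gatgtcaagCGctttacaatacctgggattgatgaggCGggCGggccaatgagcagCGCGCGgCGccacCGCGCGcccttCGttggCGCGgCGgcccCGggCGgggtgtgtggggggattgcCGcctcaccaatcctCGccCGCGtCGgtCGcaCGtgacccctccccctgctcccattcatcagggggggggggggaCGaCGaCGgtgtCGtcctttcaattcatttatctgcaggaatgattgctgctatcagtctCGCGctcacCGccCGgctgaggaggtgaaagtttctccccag
Zic4 promoter, chr9:91368722-91369021, plus strand: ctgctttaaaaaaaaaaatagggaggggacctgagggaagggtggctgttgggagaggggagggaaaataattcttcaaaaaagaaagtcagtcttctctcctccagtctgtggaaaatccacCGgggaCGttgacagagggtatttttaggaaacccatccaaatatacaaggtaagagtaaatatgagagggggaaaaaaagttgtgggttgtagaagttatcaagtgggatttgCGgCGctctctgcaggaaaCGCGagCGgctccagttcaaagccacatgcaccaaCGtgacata
Zic5 promoter, chr14:122465609-122465908, minus strand: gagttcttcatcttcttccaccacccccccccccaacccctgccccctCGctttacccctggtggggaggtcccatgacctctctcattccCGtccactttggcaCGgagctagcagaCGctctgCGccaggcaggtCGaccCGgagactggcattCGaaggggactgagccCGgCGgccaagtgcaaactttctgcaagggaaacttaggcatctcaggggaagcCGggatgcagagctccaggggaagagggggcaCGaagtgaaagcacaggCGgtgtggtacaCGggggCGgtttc

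The low pair did not share base composition. The Zic1 window held 31 CpG and was 65.3% G or C, the Zic4 window held 8 CpG and was 46% G or C, and the Zic5 window held 15 CpG and was 62.7% G or C. Over all 32851 promoter windows of the table the medians were 7 CpG and 52.7%. The letters TAATCC, the core bound by Otx proteins, occur on either strand in 7.06% of all windows and in none of these 3. Among the other members with a window, Stil and 1 of the 5 Tgif1 windows held it. ACCACCCA, the core of a Gli site, occurs in 1.48% of all windows and in none of the 13 windows of the 8 members matched.

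Zic1 was far lower in mutant heads than in wild-type heads. It stood at 0.324 and 0.376 RPKM in the mutant libraries, 0.405 and 3.11 RPKM in the heterozygous libraries, and 6.96 and 3.97 RPKM in the wild-type libraries. Both mutant libraries lay under every other library, heterozygous replicate 1 lay just above them, and heterozygous replicate 2 lay near the lower wild-type library. The mutant mean was 0.35 ± 0.0371 RPKM, against 5.47 ± 2.12 in wild type (SD, n = 2 each), or 6.4% of it. In mutant against wild type Zic1 had a log2 fold change of -3.96 (SE 0.94, adjusted p = 0.0271 by edgeR's quasi-likelihood test).

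Zic4 was the lowest of the 9 in level and split the libraries as Zic1 did. It was counted at 1 and 1 reads in the mutant libraries, 0 and 15 in the heterozygous libraries, and 40 and 37 in the wild-type libraries. The wild-type libraries held most of the reads, heterozygous replicate 2 lay between them and the mutants, and heterozygous replicate 1 held none, where 3 reads would be 0.096 CPM. Summed over the libraries of a group, 2 reads against 77 correspond to a level 35.1-fold lower in mutants, with an exact 95% interval from 9.39-fold to 295-fold that covers counting error only. The fitted log2 difference was -4.91 (SE 1.44, adjusted p = 0.0496), a value that depends on the prior count of the fit. As Zic4 entered the test only through the group in which it is high, its passing as lower is no support for a difference, and the reads are given as a description.

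Zic2 and Zic5, the other divergent pair, did not pass. Zic2, the family member with the highest level, stood at 21.8 and 22.7 RPKM in mutant, 28 and 24.1 RPKM in heterozygous, and 32.8 and 22.8 RPKM in wild-type libraries. The mutant libraries lay just under the lower wild-type library, and the wild-type libraries differed from each other by more than that gap. The log2 fold change in mutant against wild type was -0.31 (SE 0.17, adjusted p = 0.217), and the Zic2 difference did not pass. Without wild-type replicate 2 it was -0.55 with an adjusted p of 0.0257, and without wild-type replicate 1 it was -0.02 with an adjusted p of 0.907. Zic5 stood at 3.98 and 4.1 RPKM in mutant, 4.44 and 4.14 RPKM in heterozygous, and 5.51 and 3.17 RPKM in wild-type libraries. All mutant and heterozygous values of Zic5 fell between the 2 wild-type ones (log2 fold change -0.10, SE 0.26, adjusted p = 0.806). In both divergent pairs each gene had its partner as the nearest of the other 8 members. The root mean square difference of their centred log2 levels over the 6 libraries was 0.133 for Zic2 and Zic5. It was 0.88 for Zic1 and Zic4, against 1.74 for Zic1 and Zic2. Some members on different chromosomes were closer than Zic2 and Zic5: Disp1 and Stil (0.093), Gas1 and Stil (0.114), Gas1 and Disp1 (0.129). Zic1 and Zic4 varied most over the libraries (SD of log2 level 1.99 and 2.68), with Cdon next at 0.31. Whether lying as a pair goes with a shared pattern was not tested.

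**Figure D1:**
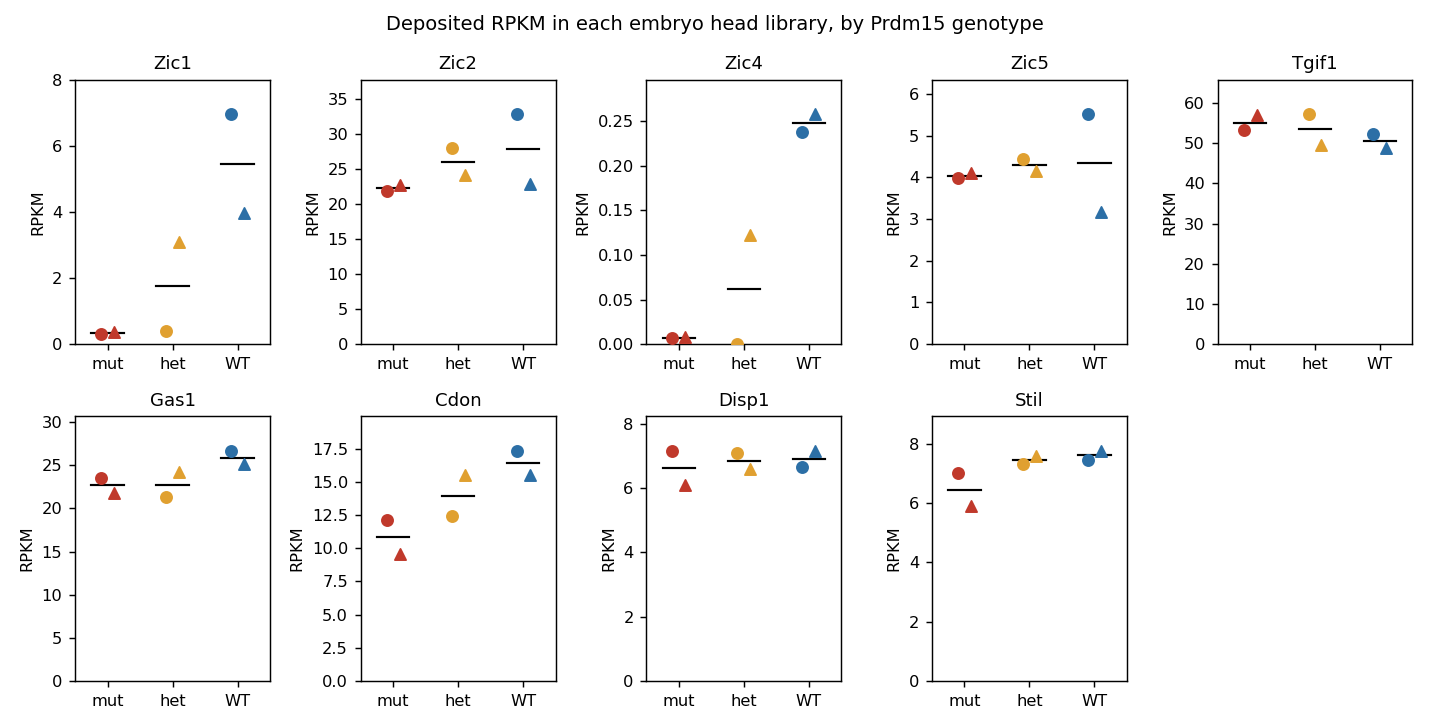
Deposited RPKM (y axis, from 0, a scale per gene) of the 9 genes in mutant (mut), heterozygous (het) and wild-type (WT) libraries. Circles are replicate 1, triangles replicate 2, and bars the mean of 2. Zic1 and Zic4 were near 0 in both mutant libraries and in heterozygous replicate 1, while the other 7 members ranged over less than 2-fold.

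Among the Hedgehog genes, Cdon was lower in mutant heads, while Gas1 and Disp1 did not pass. Cdon stood at 12.1 and 9.55 RPKM in mutant, 12.4 and 15.5 RPKM in heterozygous, and 17.3 and 15.5 RPKM in wild-type libraries. Mutant and wild-type libraries did not overlap, and heterozygous replicate 1 was close to the higher mutant library. The mutant mean was 66% of the wild-type mean. Cdon passed at a log2 fold change of -0.59 (SE 0.15, adjusted p = 0.0347). Gas1, the second co-receptor, stood at 23.5 and 21.8 RPKM in mutant, 21.3 and 24.2 RPKM in heterozygous, and 26.7 and 25.1 RPKM in wild-type libraries. Both mutant and both heterozygous libraries of Gas1 lay under the wild-type ones, by a margin that did not pass (log2 fold change -0.18, SE 0.09, adjusted p = 0.156 in mutant and 0.262 in heterozygous against wild type). Disp1 stood at 7.15 and 6.09 RPKM in mutant, 7.08 and 6.6 RPKM in heterozygous, and 6.66 and 7.14 RPKM in wild-type libraries. The 3 genotypes of Disp1 overlapped fully (log2 fold change -0.05, SE 0.10, adjusted p = 0.739).

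Tgif1 had the highest level of the 9, at 53.2 and 57 RPKM in mutant, 57.2 and 49.7 RPKM in heterozygous, and 52.4 and 48.8 RPKM in wild-type libraries. It was the 1 member whose mutant libraries both lay above the wild-type ones, with a difference of means smaller than the gap between the heterozygous libraries (log2 fold change 0.13, SE 0.08, adjusted p = 0.279). Stil stood at 6.99 and 5.88 RPKM in mutant, 7.3 and 7.57 RPKM in heterozygous, and 7.44 and 7.75 RPKM in wild-type libraries. Mutant replicate 2 was the lowest library for Stil, and the difference did not pass (log2 fold change -0.23, SE 0.10, adjusted p = 0.137).

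By length-scaled level in wild-type heads, the order was Tgif1 (50.6 RPKM), Zic2 (27.8), Gas1 (25.9), Cdon (16.4), Stil (7.6), Disp1 (6.9), Zic1 (5.47), Zic5 (4.34) and Zic4 (0.248). The wild-type libraries of Zic2 and Gas1 overlapped, as did those of Zic1 with Disp1 and with Zic5. In mutant heads Zic1 had dropped below Zic5, at a mean of 0.35 RPKM against 4.04 RPKM for Zic5, and Zic4 remained last at 0.0074 RPKM.

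In mutant against wild type, 3 of the 9 members passed, all lower (Zic1, Cdon and, with its direction favoured by the filter, Zic4), where 30.6% of all 15187 genes tested passed in either direction and 13.6% as lower. The share of members is close to that background. The median log2 fold change was -0.23 over the 9 members and -0.02 over all genes. Mutant and wild-type libraries did not overlap for 7 of the 9 (1 higher and 6 lower), against 71% of all genes. In the authors' deposited table, the same 3 members have a false discovery rate under 0.05: 4.34e-07 for Zic1, 0.000551 for Zic4 and 0.000134 for Cdon. Those values come from the same mutant and wild-type libraries and are no independent check. Leaving out libraries removed calls. Without mutant replicate 1 only Cdon passed (adjusted p = 0.0465), without mutant replicate 2 none did (0.115 for Zic1), without wild-type replicate 1 none did (0.0743 for Zic1), and without wild-type replicate 2 Zic1 (0.042) and Zic2 passed while Zic4 (0.098) and Cdon (0.0621) did not. With a term for high Xist counts Zic1, Zic4 and Cdon had adjusted p of 0.0776, 0.096 and 0.128 and log2 fold changes of -3.50, -4.97 and -0.51. Only in wild type does Xist differ within a group, so this term amounts to leaving out wild-type replicate 1 and is no separate check. Among the 3 libraries high in Xist alone, Zic1 was at 0.324 and 0.376 RPKM in mutant and 3.97 RPKM in wild type. Cdon was there at 12.1 and 9.55 RPKM in mutant and 15.5 RPKM in wild type, with 1 wild-type library and no test.

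**Figure D2:**
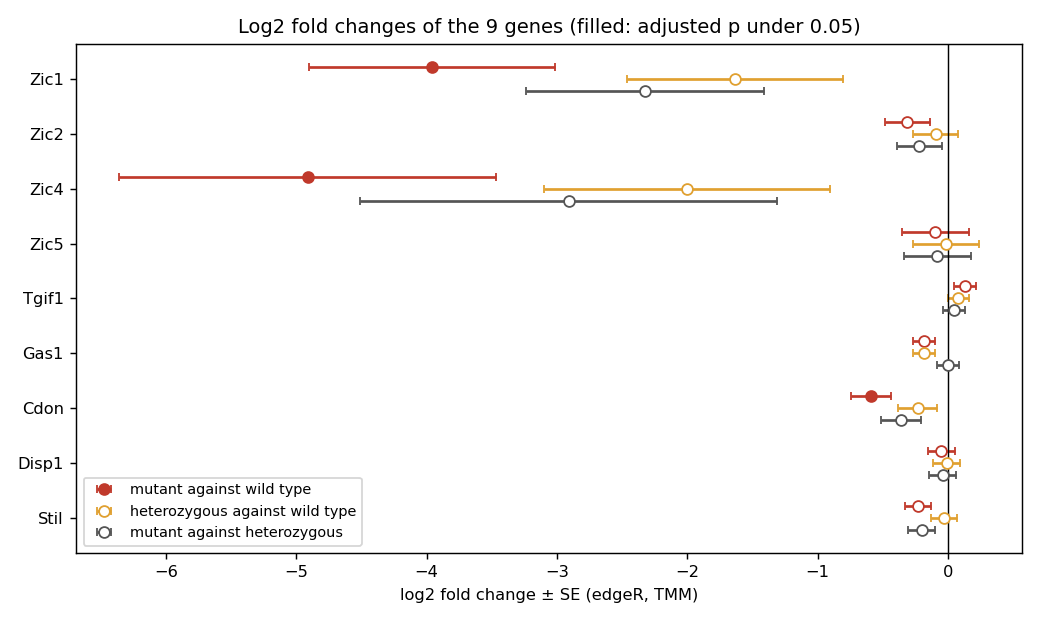
Log2 fold change (x axis, edgeR with TMM, bars are SE) of each member in mutant against wild type, heterozygous against wild type and mutant against heterozygous libraries, with filled points where the adjusted p is under 0.05. The filled points are Zic1 (-3.96), Zic4 (-4.91) and Cdon (-0.59) in mutant against wild type.

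Heterozygous heads split for Zic1 and Zic4. In heterozygous against wild type, 0 of 9 members passed edgeR's test, with 0 at an adjusted p under 0.05 by DESeq2 as well, where 6.56% of all genes passed by edgeR, 6.03% as higher and 0.533% as lower. None of the 9 had an unadjusted p under 0.05. Zic1 had a log2 fold change of -1.64 (SE 0.83, adjusted p = 0.296) and Zic4 had 15 reads against 77, a level 4.16-fold lower by reads (95% counting interval 2.37 to 7.78) that did not pass (adjusted p = 0.328). Heterozygous replicate 1 held 7.4% of the wild-type mean of Zic1 and replicate 2 held 56.8%, a 7.68-fold gap. Differences over 4-fold between the heterozygous libraries were found in 62 of 13216 genes with a mean of at least 1 CPM, or 0.469%. Between the wild-type libraries there were 218 such genes (1.65%) and between the mutant libraries 97 (0.734%). With each heterozygous library left out in turn, the remaining one is assumed to vary like the other groups. Zic1 was then at -3.75 (adjusted p = 0.0291) without replicate 2 and at -0.81 (adjusted p = 0.396) without replicate 1. For Zic4 the library that remains without replicate 2 has 0 reads, so that fit gives no fold and no support for a difference. Cdon was at 75.5% and 94.4% of the wild-type mean in the same libraries (log2 fold change -0.23, SE 0.15, adjusted p = 0.403).

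In mutant against heterozygous, 0 of 9 members passed by edgeR, where 0.435% of all genes did (0.0724% as higher and 0.362% as lower), and by DESeq2 0 did. Zic1 had the smallest unadjusted p, 0.0452, and was the 1 member with an unadjusted p under 0.05 (log2 fold change -2.32, SE 0.91, adjusted p = 0.225). For Zic4 it was -2.91 (SE 1.60, adjusted p = 0.352), with 2 reads in the mutant against 15 in the heterozygous libraries. Cdon was at -0.36 (SE 0.15, adjusted p = 0.253), and Stil, for which both heterozygous libraries were near wild type, at -0.20 (SE 0.10, adjusted p = 0.314). The 3 comparisons share libraries and are not independent.

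The genes whose library pattern was nearest to Zic1, by root mean square difference of centred log2 CPM over 6 libraries among 10860 genes, were Msx3 (0.39), a homeobox gene of the dorsal neural tube, and Pou3f2 (0.42), a POU factor of neural progenitors. Msx3 stood at 0.728 and 0.64 RPKM in mutant, 1.04 and 5.28 RPKM in heterozygous, and 8.75 and 4.97 RPKM in wild-type libraries. Pou3f2 stood at 0.443 and 0.418, 0.53 and 2.28, and 4.28 and 4.12 RPKM in mutant, heterozygous and wild-type libraries in turn. Both were low in heterozygous replicate 1 and intermediate or high in replicate 2, as Zic1 was, a likeness that follows from how they were chosen. For Zic4 the nearest were the embryonic globin genes Hba-x (0.80) and Hbb-bh1 (0.81), whose distances are large and whose reads may be shared with related globins. Erythroid genes summed to 30.9 and 12.3 CPM in mutant, 6.11 and 237 in heterozygous and 168 and 248 in wild-type libraries, so that red cell genes too were low in the libraries low in Zic1; the part of this in the Zic1 and Zic4 results was not tested. For Tgif1 the nearest were Coq4 (0.02) and Arl6ip1 (0.02), for Disp1 Lin9 (0.02) and Cog3 (0.02), and for Stil Mtr (0.02) and Zfp128 (0.02). Such small distances single out no gene, since 8052 genes lay within 0.25 of Tgif1 and 0 within 0.25 of Zic1. Cdon was nearest to Pfkfb3 (0.05) and Kdm3a (0.05), Gas1 to Nthl1 (0.02) and Nr2f6 (0.03), Zic2 to Zfp760 (0.07) and Zfp493 (0.08), and Zic5 to Nek8 (0.09) and Arrdc3 (0.09).

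**Figure D3:**
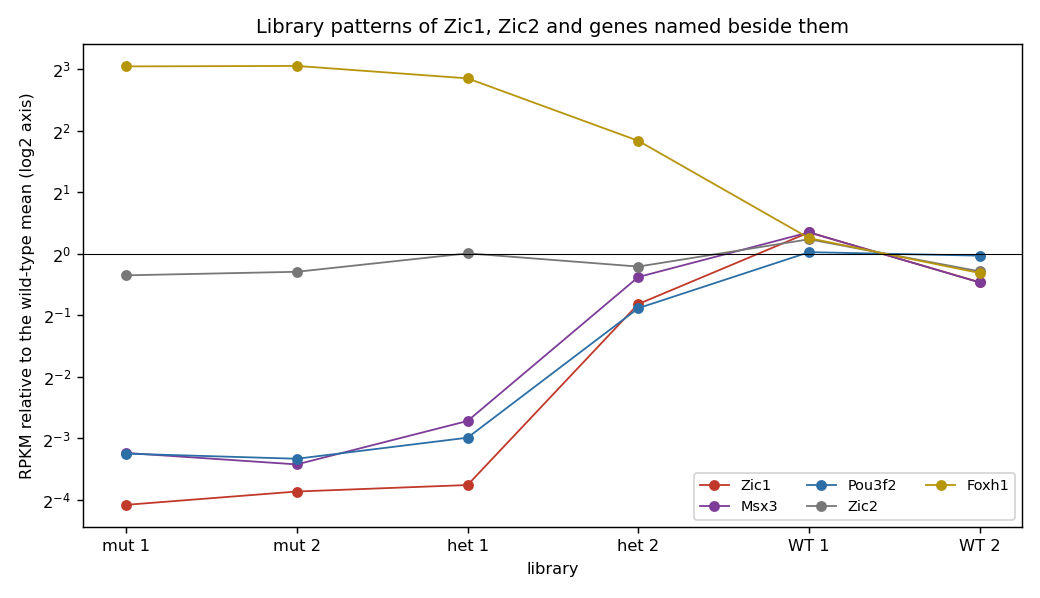
RPKM relative to the wild-type mean (y axis, log2 scale) in each of the 6 libraries for Zic1, Zic2, the 2 genes nearest to Zic1 (Msx3 and Pou3f2) and Foxh1; lines only join the points of a gene. Heterozygous replicate 1 sat with the mutant libraries for Zic1 (0.405 RPKM), and replicate 2 nearer to wild type (3.11 RPKM).

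Genes of the dorsal neural tube, where Zic genes are expressed, were mostly lower in mutant heads. Among the 11 roof plate and dorsal genes tested there were 8 that fell and 2 that rose, with 1 short of the threshold. Their median log2 fold change was -1.27, against -0.02 over all genes. All 12 listed genes summed to 185 and 154 CPM in mutant, 169 and 192 in heterozygous and 240 and 165 in wild-type libraries. These sums overlapped between mutant and wild type. Over all genes tested 13.6% passed as lower and 17.1% as higher, the background for each list of this paragraph. The signal gene Wnt1 changed by -1.77 (SE 0.52, adjusted p = 0.0496), Wnt3a by -1.93 (SE 0.40) and the roof plate regulator Lmx1a by -1.11 (SE 0.20). Msx3, named here because its pattern was nearest to Zic1, changed by -3.31 (SE 0.78). Its relative Msx1, also expressed in mesenchyme, rose by 0.82 (SE 0.19). In heterozygous against wild type their median was -0.34. Of the 8 ventral midline genes 4 were lower and 2 higher, with Nkx2-1, a regulator of the ventral forebrain, at -4.17 (SE 0.77), Nkx2-2 at -1.95 (SE 0.43), and Foxa2, also of endoderm, at 0.53 (SE 0.13). Forebrain genes fell in 10 of 12 cases (median -2.56), Otx2 by 1.53 (SE 0.25) on the log2 scale among them. Pan-neural progenitor genes fell in 10 of 12 (median -0.95), summing to 524 and 566 CPM in mutant, 783 and 913 in heterozygous and 1048 and 1001 in wild-type libraries. The fall of Zic1 exceeded that median and the change of Zic2 (-0.31) did not reach it. The difference between them was not tested. Somite and paraxial mesoderm genes, another site of Zic expression, summed to 62.7 and 139 CPM in mutant, 45.1 and 63.6 in heterozygous and 42.1 and 9.61 in wild-type libraries, with 2 of 7 higher and 1 lower.

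Scaling the libraries to the summed pan-neural genes in place of all genes moved the median of all genes by 0.86 in mutant against wild type. Zic1 stayed lower at -3.10 (adjusted p = 0.00653). Zic4 was at -4.11, its passing as lower again no support for a difference. Zic2 (0.55), Zic5 (0.77), Gas1 (0.67), Disp1 (0.81) and Stil (0.63) turned positive and passed, as did Tgif1 (0.99), and Cdon turned to 0.27 without passing. So 6 members passed as higher and 2 as lower, where 78.8% of all genes passed, 76.5% as higher and 2.26% as lower. With the shift of all genes taken off again, Cdon was at -0.59, Zic2 at -0.31 and Zic1 at -3.95. These nearly repeat the values of the unscaled fit by construction and are no further result. The scaling moves all genes alike, so any gene less than 0.86 below wild type, Cdon included, turns positive by construction.

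Other genes tied to holoprosencephaly moved in both directions. Of 21 listed, 3 rose and 4 fell, while 14 stayed short of the threshold, in mutant against wild type (median 0.01). Over all genes tested 17.1% passed as higher and 13.6% as lower, so the counts of this list are close to that background. The 8 named first in the list were Shh, Six3, Gli2, Ptch1, Nodal, Tdgf1, Foxh1 and Fgf8. Six3, a homeobox gene of the anterior neural plate, was at 4.33 and 1.18 RPKM in mutant, 11.8 and 11.8 RPKM in heterozygous and 17 and 11.3 RPKM in wild-type libraries (log2 fold change -2.33, SE 0.56, adjusted p = 0.0275). Foxh1, a transcriptional partner of Nodal-activated Smads, was at 86.6 and 87 RPKM in mutant, 75.7 and 37.4 RPKM in heterozygous and 12.5 and 8.44 RPKM in wild-type libraries. Foxh1 rose both in mutant (3.06, SE 0.37, adjusted p = 0.00384) and in heterozygous heads (2.43, SE 0.36, adjusted p = 0.0192), and was the 1 gene of this list to pass in heterozygous against wild type. In that comparison 6.56% of all genes tested passed. Nodal, the TGF-beta family ligand, was at 3.52 and 3.84 RPKM in mutant, 4.24 and 0.016 RPKM in heterozygous and 0 and 0.0408 RPKM in wild-type libraries. It was high in the libraries where Zic1 was low, and its difference did not pass (adjusted p = 0.0557). Its co-receptor gene Tdgf1 (2.65, SE 1.07, adjusted p = 0.113), the ligand gene Shh (-0.26, SE 0.22, adjusted p = 0.412), Gli2 (0.09, SE 0.07, adjusted p = 0.384), Ptch1 (0.32, SE 0.17, adjusted p = 0.208) and Fgf8 (0.20, SE 0.18, adjusted p = 0.44) did not pass either.

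In the Hedgehog pathway, beside Disp1, Cdon and Gas1, 7 of 17 genes fell and 2 rose in mutant against wild type, and 8 stayed short of the threshold (median -0.26). The shares over all genes tested were 13.6% as lower and 17.1% as higher. On the release side, Scube2, whose protein helps Hedgehog leave the cell with Disp1, was at 0.609 and 0.478 RPKM in mutant, 2.52 and 4 RPKM in heterozygous and 4.93 and 4.02 RPKM in wild-type libraries. Its log2 fold change was -3.03 (SE 0.28, adjusted p = 0.00179) against wild type and -2.57 (SE 0.28, adjusted p = 0.0385) against heterozygous. Scube1 fell by 1.71 (SE 0.33) and Scube3 was at -0.00 (SE 0.16). The acyltransferase gene Hhat, at -0.54 (SE 0.22, adjusted p = 0.118), did not pass. On the receiving side, Boc, the third co-receptor and paralogue of Cdon, was at 9.24 and 7.77 RPKM in mutant, 11 and 12.6 RPKM in heterozygous and 13.1 and 11.3 RPKM in wild-type libraries (-0.51, SE 0.13, adjusted p = 0.0329). Cdon and Boc thus both fell by about the same log2 amount (-0.59 and -0.51), and Gas1 (-0.18) did not pass. Gli1, a transcriptional readout of the pathway that was singled out after its values were seen, was at 2.74 and 4.76 RPKM in mutant, 18.1 and 17.4 RPKM in heterozygous and 15.4 and 17.3 RPKM in wild-type libraries. It fell against wild type (-2.12, SE 0.25, adjusted p = 0.00346) and against heterozygous heads (-2.24, SE 0.25, adjusted p = 0.0385), while Ptch1, another readout, did not pass in either.

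Around Tgif1, 4 of 16 Nodal and TGF-beta genes rose and 2 fell (median 0.19), Foxh1 among those that rose. For each list of this paragraph the shares over all genes tested were 17.1% as higher and 13.6% as lower. Lefty1, a secreted Nodal inhibitor, was at 1.01 and 2.78 RPKM in mutant, 5.95 and 0.0626 RPKM in heterozygous and 0.0303 and 0 RPKM in wild-type libraries, high in the same 3 libraries as Nodal, and did not pass (adjusted p = 0.0801). Around Stil, 2 of 10 centriole duplication genes fell and 0 rose (median -0.16). Plk4, the kinase that starts centriole duplication, was at -0.16 (SE 0.04, adjusted p = 0.044), Sass6 at -0.20 (SE 0.07, adjusted p = 0.0903), Cenpj at -0.21 (SE 0.08, adjusted p = 0.0847) and Cep152 at -0.22 (SE 0.08, adjusted p = 0.0856). Stil, at -0.23, was of the same size as these. Of 15 proliferation genes 3 fell and 1 rose (median -0.07), and Mki67 (-0.10, SE 0.05, adjusted p = 0.198), Top2a (-0.12, SE 0.06, adjusted p = 0.174), Ccnb1 (0.01, SE 0.06, adjusted p = 0.929) and Ccnb2 (-0.05, SE 0.06, adjusted p = 0.545) did not pass.

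**Figure D4:**
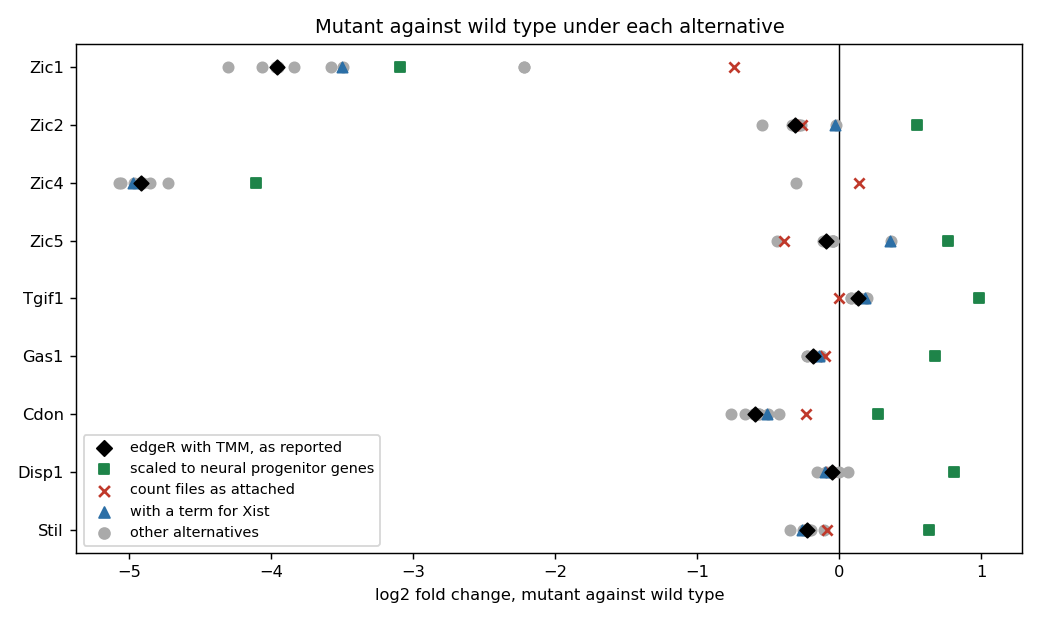
Log2 fold change of each member in mutant against wild type (x axis) with the reported fit (diamonds), scaled to pan-neural genes (squares), with the count files as attached (crosses), with a term for Xist (triangles) and under the other alternatives (grey). Zic1 stayed between -4.31 and -0.74, Cdon between -0.76 and 0.27, and Zic4 reached 0.14 with the files as attached.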

How the data were processed

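The submitters' processing notes name the build mm10 and, with no role given, TopHat2 2.0.11, HTSeq 0.6.1p2, edgeR 3.8.6, cutadapt 1.8 and Trim Galore 0.4.0. Neither annotation nor strand setting is given in the sources used. The authors deposited raw counts per gene, with 5 summary lines per file that were left out (8.93% to 10.5% of reads in no feature, 1.04% to 1.08% ambiguous, 12.7% to 14.5% not unique), and a series table with RPKM per library under the sample titles. That deposited table also gives the authors' log2 fold change and false discovery rates (adjusted p-values) for mutant against wild type.

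Counts, assigned by the title in each file's name, went into edgeR 4.0.16 under R 4.3.3 (quasi-likelihood F-test, TMM, filterByExpr by group, 15187 genes, all 6 libraries in 1 fit, 3 residual degrees of freedom, Benjamini-Hochberg over all genes, threshold 0.05). Each SE was derived as the size of the log2 fold change over the root of its F statistic. The common biological coefficient of variation was 0.182, and 0.387 with the files as attached. Levels of single genes are the deposited RPKM, while list sums are CPM of library totals. The labels name 2 heads per genotype and no litters, so p-values cover only how these particular libraries varied. On simulated counts of 15187 genes, 100 genes were changed 2-fold and 100 changed 4-fold in the mutant libraries. Mutant against wild type recovered 57% of these 2-fold and 81% of these 4-fold changes, with 11 false among 149 calls. The measured comparison called 4654 genes, so these rates need not hold for it.

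Alternatives were the files as attached, RLE factors, scaling to 12 neural progenitor genes, no filter, DESeq2 1.42.0, limma 3.58.1 on log2(RPKM + 1) or log2(RPKM + 0.1), 2 groups alone, a term for Xist above 10 CPM and leaving out each library. The members and lists were chosen with earlier results of these data known. Some results are not reported here. Named genes are the 9 members, Prdm15, Otx2, the first 8 (Hedgehog and holoprosencephaly lists) or the first members of each list in its written order, and the 2 genes of at least 5 CPM with the pattern nearest to each member.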

Additional observations from a re-analysis of the deposited data

How the results depend on the processing

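With the count files as attached, 0 genes passed in each of the 3 comparisons and 0 members, and Zic4 in mutant against wild type turned to 0.14. Scaled to neural progenitor genes, 11967 genes (11624 higher, 343 lower) and 8 members passed in mutant against wild type. The same scaling gave 1786 genes for heterozygous against wild type, and 10167 genes and 4 members for mutant against heterozygous. In mutant against wild type that scaling turned Zic2 (0.55), Zic5 (0.77), Gas1 (0.67), Cdon (0.27), Disp1 (0.81), Stil (0.63) and Prdm15 (0.64) positive, and in mutant against heterozygous Zic2 (0.37), Zic5 (0.52), Cdon (0.26), Disp1 (0.56), Stil (0.40) and Prdm15 (0.56), as it moved the median of all genes by 0.86 and 0.60. With a term for Xist, 2500 genes and 0 members passed in mutant against wild type. It left 516 genes for heterozygous against wild type and 4 for mutant against heterozygous. The Xist term is set by the wild-type libraries alone, since Xist is alike within each other group. Its mutant against heterozygous count therefore rests on the difference between those wild-type libraries. In heterozygous against wild type DESeq2 called 1890 genes and limma without a filter 526. In mutant against heterozygous DESeq2 called 1313, limma without a filter 19 and edgeR without a filter 182. The causes of these differences between tools were not tested.

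Leaving out 1 library gave 2024 to 4354 genes and 0 to 3 members in mutant against wild type. For heterozygous against wild type it gave 313 to 773 genes and 0 to 2 members. It gave 11 to 71 genes and 0 members in mutant against heterozygous. Over the alternatives in mutant against wild type, Zic1 was lower in 16 of 16 (passing in 11) and Cdon in 15 of 16 (passing lower in 9). Zic4 was lower in 13 of 14, which is given as a description only. The alternatives reuse mostly the same mutant and wild-type libraries, so these counts are no tally of independent checks. No paired analysis was possible because no number in the sample titles is shared between groups as a replicate number.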
